A study of Mus musculus with 12 samples.

Results

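The 38 genes described here encode proteins that copy the genome and divide the cell. They were fixed by name, and each was read at the peaks lying within 1 kb of an end of the gene in the RefSeq annotation of mouse. All 38 of the 38 named genes had such a gene-end peak for H3K4me3 and for H3K27ac, and 4 of the 38 had one for H3K27me3. The series profiled these 3 histone marks by CUT&RUN, in which an antibody-tethered nuclease releases the chromatin that carries a mark, in organoids grown from crypts of mouse intestine. The medium contained EGF, Noggin, R-spondin and the kinase inhibitors CHIR-99021 and Y-27632 in every group. Organoids received vehicle or 25 µM AA (arachidonic acid) for 6 days, and 2 libraries were made per treatment and mark, 12 in all. The sample labels name no genotype, strain or animal age, whereas the design text of the series mentions organoids lacking a Ptger receptor, so the genotype is not known here. Nothing in the labels shows whether replicate libraries stem from different cultures or animals. A p-value here thus reflects the spread of these libraries alone, and that spread could be technical.

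Before DNA replication, the MCM helicase is loaded at origins by Cdc6 and Cdt1, and geminin blocks a new round of loading. E2F factors switch on the genes of S phase, cyclins with their kinases drive the cell through S phase and into mitosis, and the Aurora and Polo kinases, kinesins and the spindle checkpoint then part the chromosomes. In the intestine such genes are active in dividing crypt cells and are turned down as cells differentiate. H3K4me3 and H3K27ac mark the starts of active genes, and H3K27me3 is laid down by Polycomb at silenced ones.

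Values are the authors' peak scores, a mean signal per base of a peak after their scaling, and differences are log2 changes of AA minus vehicle after adding a small pseudocount. A gene with several gene-end peaks was read at the one with the highest mean score over the 4 libraries of the mark. A gene is called higher or lower where limma, fitted over all peaks of the mark, gave an adjusted p under 0.05 (Benjamini-Hochberg). As a yardstick, genes of similar mean score are all other genes whose mean score lay between the 25th and 75th percentile of the members' scores. All 12 epithelial marker genes checked, such as Epcam and Cdh1, had an H3K4me3 gene-end peak, against 3 of 10 fibroblast, 4 of 10 blood cell and 2 of 8 endothelial and glial markers. The summed H3K4me3 scores of the fibroblast markers were 1.03 and 1.11 with vehicle and 0.924 and 0.739 with AA, and those of the blood cell markers were 1.43 and 1.59 with vehicle and 1.93 and 1.65 with AA. Those of the endothelial and glial markers were 0.329 and 0.259 against 0.328 and 0.322, and those of the epithelial markers were 9.99 and 9.42 against 12.2 and 10.6. Ptprc, Cd3e, Pecam1, Cdh5, Col1a2 and Col3a1 had no H3K4me3 gene-end peak, and the B cell gene Cd79a was the 1 marker called for this mark, with a change of 0.64 (limma adjusted p = 0.0388). For H3K27ac, 12 of 12 epithelial, 3 of 10 blood cell and none of the fibroblast, endothelial and glial markers had a gene-end peak, and none was called by limma. For H3K27me3, 5 of 12 epithelial, 7 of 10 fibroblast, 7 of 10 blood cell and 6 of 8 endothelial and glial markers had one, and the myeloid gene Lyz2 was called higher. The part of such cells in the results was not tested. In a principal component analysis of the H3K4me3 peaks, AA replicate 2 stood apart at 157.7 on the first component (48.8% of the variance). The other libraries lay between -74.05 and -13.48. For H3K27ac (39.5%) vehicle replicate 1 stood at 74.66, with the other libraries between -49.11 and -2.963. For H3K27me3 (41.6%) the values were -32.44 and -145 with vehicle and 121.7 and 55.74 with AA.

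The replication and mitosis genes all had gene-end peaks of both active marks, and few had one of the Polycomb mark. Among 21900 protein-coding genes, 66.0% had an H3K4me3 gene-end peak, 54.2% an H3K27ac peak and 35.2% an H3K27me3 peak, against 100.0%, 100.0% and 10.5% of the members. The 4 members with all 3 marks were E2f1, E2f8, Birc5 and Kif11. The members' H3K4me3 scores ranged from 0.527 to 1.83 with a median of 0.903, above the median of 0.721 over the 14452 genes with such a peak, and 28 of the 38 lay above that median. Their H3K4me3 peaks were also long, with a median of 5424 bp (range 3248 to 14620 bp) against 4166 bp over all genes with a peak. The H3K27ac peaks had a median length of 5151 bp against 3566 bp over all genes, and a median score of 0.307 against 0.289.

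The peaks leaned into the gene. Of the 31 members with an annotated start in the RefSeq table of promoters, 30 had an H3K4me3 peak that covered it, and 28 of these 30 reached farther downstream than upstream. The median extent was 3947.5 bp downstream and 1752.5 bp upstream. For H3K27ac, 26 peaks covered the start and 23 were longer downstream. The H3K27ac peaks read at Cdt1, Ccne1, E2f1, E2f2 and E2f8 did not cover it. The peak of E2f1 did cover the upstream end of the gene in the gene annotation. The start of E2f1 in the table of promoters lies inside the gene. That of Ccne1, its only gene-end peak of this mark, began 8869 bp into the gene. Cdt1 was read from 4652 bp into the gene, beside Aprt and Galns. Cdt1 and E2f2 each also had a weaker H3K27ac peak over the start. The log2 changes there were 0.34 at Cdt1 and -0.11 at E2f2, against 0.17 and 0.30 at the peaks read. None of these passed in limma. The exception for H3K4me3 was Cdk2, which was read at the far end of the gene beside Pmel and Rab5b. At 10 members the H3K4me3 peak also lay within 1 kb of an end of another gene. Examples were Mcm4 with Prkdc, Mcm7 with Ap4m1, Ccna2 with Bbs7 and Kif20a with Brd8 and Cdc23. The score there cannot be assigned to 1 of the genes.

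**Figure D1:**
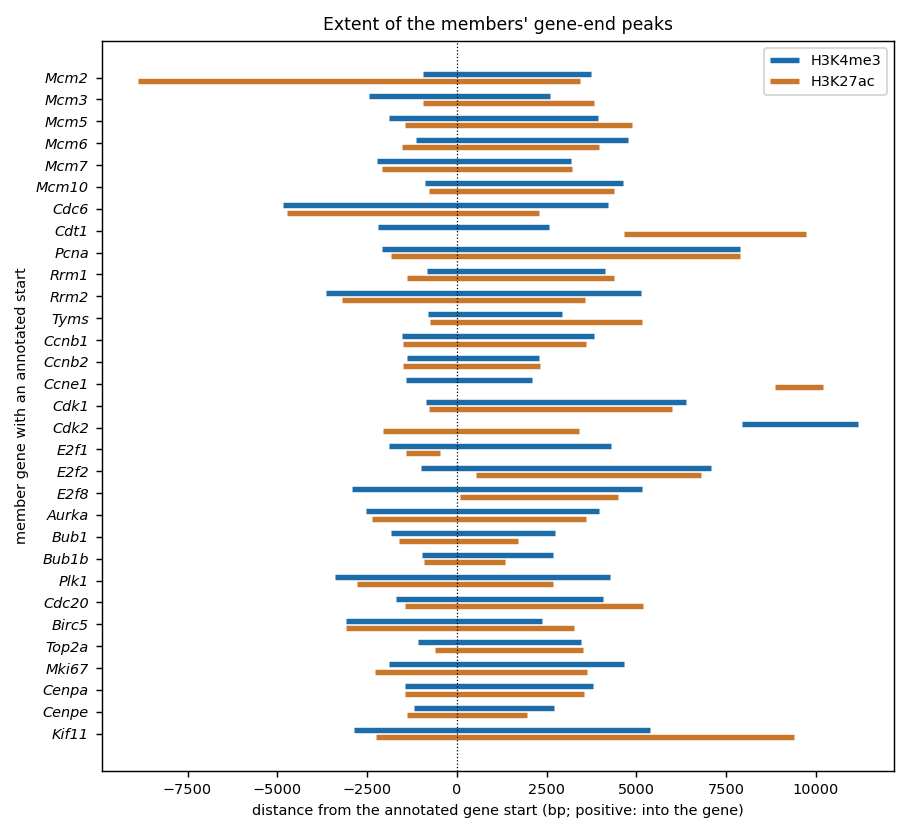
Extent of the chosen H3K4me3 and H3K27ac gene-end peaks of the members with an annotated start, as distance from that start in bp, with positive values running into the gene. Most bars cross 0 and reach farther to the right: 28 of the 30 H3K4me3 peaks that cover the start are longer downstream.

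Promoter sequences were looked at because most of these peaks sit over the gene starts, and because cell cycle genes are known to share a few short promoter elements. The sequences are the 250 bases before the start of the 2 members called for H3K4me3, Mcm5 and Top2a, and of the 4 members with the highest H3K4me3 scores among the others in the table. They are from RefSeq (GRCm38.p6), read 5′ to 3′ on the strand of the gene. Capitals mark matches on either strand to the CCAAT box (CCAAT), to 3 spellings of the E2F element (TTTGGCGC, TTTCGCGC and TTTCCCGC) and to 2 spellings of the cell cycle homology region (TTTGAA and TTCGAA, the latter reading the same on both strands). The positions are chr8:75109259-75109508 (plus strand) for Mcm5, chr11:99024190-99024439 (minus) for Top2a, chr19:37376132-37376381 (plus) for Kif11, chr7:135716380-135716629 (minus) for Mki67, chr2:172370571-172370820 (minus) for Aurka and chr2:132253181-132253430 (minus) for Pcna.
Mcm5: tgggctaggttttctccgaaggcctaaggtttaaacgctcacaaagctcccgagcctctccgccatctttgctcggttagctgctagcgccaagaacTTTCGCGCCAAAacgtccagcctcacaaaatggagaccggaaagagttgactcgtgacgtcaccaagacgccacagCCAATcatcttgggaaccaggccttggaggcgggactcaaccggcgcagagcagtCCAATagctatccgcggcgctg
Top2a: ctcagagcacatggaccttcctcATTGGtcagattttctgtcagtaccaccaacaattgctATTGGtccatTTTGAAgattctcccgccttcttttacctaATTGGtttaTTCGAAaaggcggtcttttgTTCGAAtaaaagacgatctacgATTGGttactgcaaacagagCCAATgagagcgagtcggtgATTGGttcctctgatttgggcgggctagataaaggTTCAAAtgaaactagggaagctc
Kif11: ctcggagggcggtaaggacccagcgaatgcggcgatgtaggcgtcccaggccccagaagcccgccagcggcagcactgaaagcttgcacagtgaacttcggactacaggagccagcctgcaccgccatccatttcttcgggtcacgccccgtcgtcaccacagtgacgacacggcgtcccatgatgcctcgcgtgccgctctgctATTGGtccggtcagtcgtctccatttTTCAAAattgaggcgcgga
Mki67: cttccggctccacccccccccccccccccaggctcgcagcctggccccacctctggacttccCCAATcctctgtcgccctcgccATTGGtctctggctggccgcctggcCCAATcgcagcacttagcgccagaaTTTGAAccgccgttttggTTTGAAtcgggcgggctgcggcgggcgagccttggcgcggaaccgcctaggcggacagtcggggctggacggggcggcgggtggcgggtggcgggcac
Aurka: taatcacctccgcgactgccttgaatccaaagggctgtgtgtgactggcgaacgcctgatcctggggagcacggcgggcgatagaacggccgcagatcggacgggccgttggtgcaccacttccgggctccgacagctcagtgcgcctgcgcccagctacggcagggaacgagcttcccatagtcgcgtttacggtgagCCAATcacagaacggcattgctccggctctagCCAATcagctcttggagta
Pcna: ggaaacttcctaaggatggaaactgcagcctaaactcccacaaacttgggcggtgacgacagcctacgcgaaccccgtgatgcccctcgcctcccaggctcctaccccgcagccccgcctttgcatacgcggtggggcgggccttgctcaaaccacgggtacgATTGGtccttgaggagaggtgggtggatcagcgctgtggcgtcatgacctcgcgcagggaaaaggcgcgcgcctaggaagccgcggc

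Top2a held 6 CCAAT boxes and 4 matches to the cell cycle homology region in these 250 bases. Mki67 held 3 CCAAT boxes and 2 such matches. In Mcm5 the capital run before the CCAAT boxes is 2 E2F matches that overlap, TTTCGCGC on the gene's strand and TTTGGCGC on the other, and 2 CCAAT boxes followed. The CCAAT box was the common element: 27 of 33 member promoters (81.8%, from 31 genes) held at least 1, against 33.8% of all 32851 promoters in the table and 35.5% of the 14521 promoters of genes with an H3K4me3 gene-end peak. At least 2 CCAAT boxes stood in 48.5% of member promoters, 9.91% of all promoters and 12.3% of promoters with the mark. An E2F spelling was found in 6 member promoters (18.2%), against 1.53% of all promoters and 2.62% of those with the mark. A cell cycle homology spelling was found in 11 (33.3%), against 17.1% and 12.7%. These are matches of letters, not sites of binding. Some windows lie inside a gene, before an internal start. An E2f2 window of this kind, chr4:136180532-136180781, lies past its H3K4me3 peak and held 3 CCAAT boxes and 1 cell cycle homology match. The E2f1 window also lies inside its gene and held no match. Mcm4, Gmnn, Ccna2, Ccne2, Aurkb, Kif20a and Tpx2 were not among the promoters.

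With AA, the H3K4me3 score was called higher at 2 of the 38 members, the helicase subunit gene Mcm5 and the topoisomerase gene Top2a, and lower at none. This is 5.26% of the members, beside 5.45% of all 14452 genes called higher at their gene-end peak and 1.2% called lower, 1.54% and 1.38% of all 58548 peaks (2.92% in either direction), and 4.66% and 0.285% of the 4918 genes of similar mean score. The share of members called is thus near the background. Both called genes scored above the band of similar mean scores (0.731 to 1.03), with means of 1.06 at Mcm5 and 1.24 at Top2a. With all genes cut into 20 equal bins by score, 11.7% of genes in the bin of Mcm5 were called higher. In the bin of Top2a this share was 37.2%. At an unadjusted p under 0.05 in limma, 15 of 38 members (39.5%) had a change above 0 and none below, beside 26.5% and 5.13% of all genes with a peak and 35.9% and 0.773% of genes of similar score. Values above 0 were common: 37 of 38 members had one, with a median log2 change of 0.28 (interquartile range 0.19 to 0.36, full range -0.12 to 0.48). Genes of similar mean score had a median of 0.26 with 93.9% above 0, and all genes with a peak had 0.20 with 72.9% above 0. After quantile normalization of the libraries the members' median was 0.04, with 25 of 38 above 0, and neither Mcm5 nor Top2a passed (adjusted p from limma 0.264 and 0.262). After centring each library on its median over all peaks, the members' median was 0.49 and 19 were called, beside 56.4% of the genes of similar score. The median over all genes with a peak was 0.41 with centring and 0.02 with quantile normalization.

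Library by library, the members' median H3K4me3 score was 0.838 and 0.797 with vehicle and 1.10 and 0.920 with AA. Among genes of similar mean score the medians were 0.799, 0.772, 1.02 and 0.875 in the same order, so each library stood in the same rank in both sets. AA replicate 1 was above AA replicate 2 at 38 of 38 members, and above both vehicle libraries at 38 of 38. AA replicate 2 was above both vehicle libraries at 25 of the 38 and below both at 5. Both AA libraries lay above both vehicle libraries at 25 members (65.8%), beside 51% of all genes with a peak and 71.5% of genes of similar score. At none did both lie below, beside 13.9% and 1.93%. With 1 library left out, the lone library of its group is assumed to vary like the pair of the other group. Such fits called no member without vehicle replicate 1 or without vehicle replicate 2, and called only 36 and 32 of the 58548 peaks at all (0.102% and 0.0813% of genes of similar score). The changes were 0.52 and 0.40 at Mcm5 and 0.57 and 0.38 at Top2a in these fits. There were 8 members called without AA replicate 1 (19.8% of genes of similar score) and 27 without AA replicate 2 (65.3%).

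**Figure D2:**
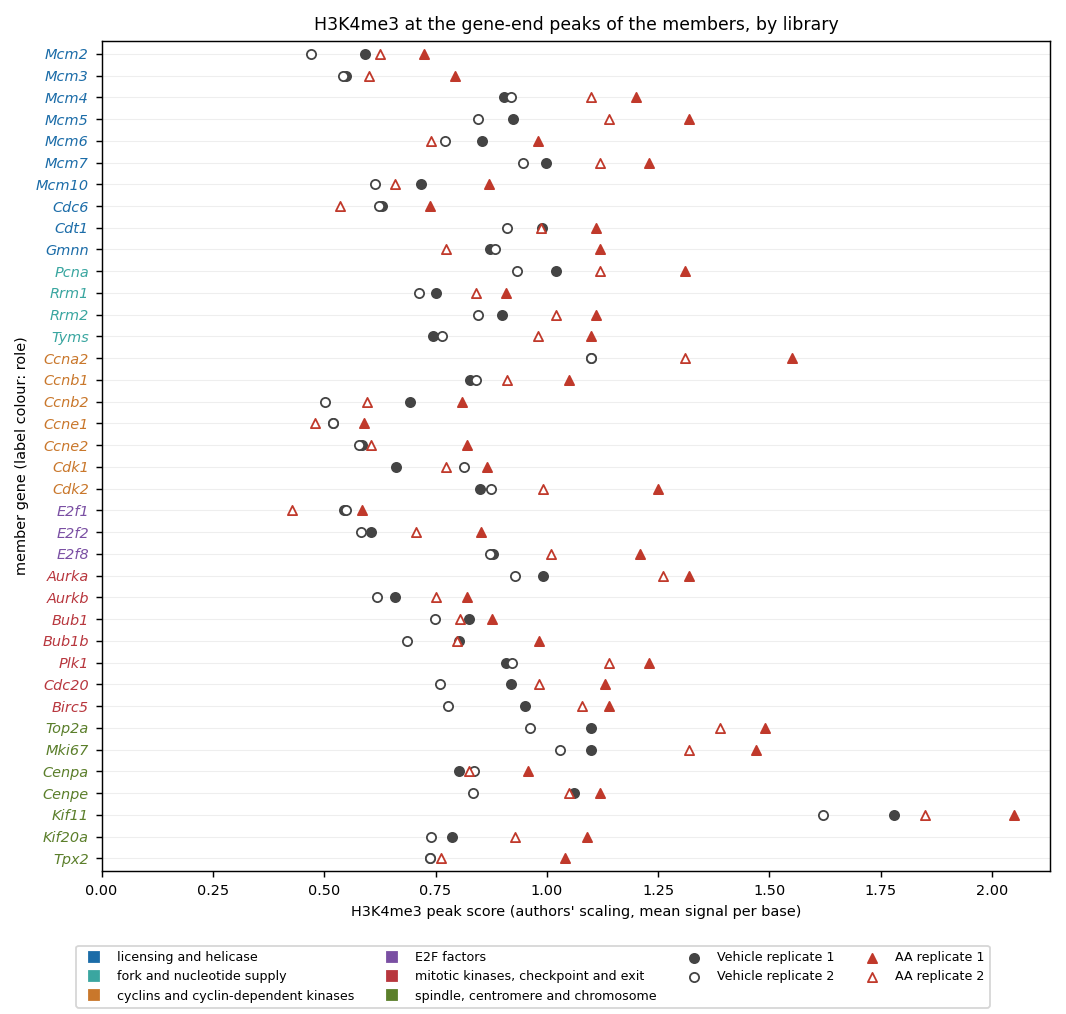
H3K4me3 peak score at the gene-end peak of each member in the 4 libraries, on an axis that starts at 0, with gene labels coloured by role. AA replicate 1 is the highest library in all 38 rows, and Kif11 has the highest scores, from 1.62 to 2.05.

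Among the 10 genes that license origins or form the helicase, 1 was called higher, the changes had a median of 0.23 (range 0.00 to 0.46), and 5 had both AA libraries above both vehicle libraries. Mcm5, a subunit of the replicative helicase, scored 0.924 and 0.846 with vehicle and 1.32 and 1.14 with AA at chr8:75107624-75113450 (mm10). Its groups did not overlap, with means of 0.885 ± 0.0554 and 1.23 ± 0.130 (SD, n = 2 each), and its log2 change of 0.46 ± 0.14 (SE) passed in limma at an adjusted p of 0.0455. Mcm7, another subunit and the gene with the highest score of this set, had 0.999 and 0.946 against 1.23 and 1.12. The AA libraries were again the higher ones, but the change of 0.27 ± 0.14 did not pass (limma adjusted p = 0.323). Cdc6, a helicase loader, stood at the other end with 0.629 and 0.624 against 0.737 and 0.535, where AA lay on both sides of vehicle. The other members of this set, Mcm2, Mcm3, Mcm4, Mcm6, Mcm10, the loader Cdt1 and geminin (Gmnn), had changes from 0.07 at Mcm6 to 0.34 at Mcm2 and none passed.

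The 4 genes of the fork and of nucleotide supply all had both AA libraries above both vehicle libraries, with changes of 0.25 to 0.45, and none was called. Tyms, which makes thymidylate, had 0.745 and 0.765 with vehicle and 1.10 and 0.981 with AA. Its change of 0.45 ± 0.16 was close to that of Mcm5, with an adjusted p of 0.0864 in limma. Pcna, the sliding clamp of the polymerases, had 1.02 and 0.934 against 1.31 and 1.12, a change of 0.30 ± 0.14. Rrm1 and Rrm2, the subunits of ribonucleotide reductase, had changes of 0.25 and 0.28.

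None of the 7 cyclin and cyclin-dependent kinase genes was called, and the changes ran from 0.03 to 0.36. Ccna2, the S phase and G2 cyclin, had the highest score of these with 1.10 and 1.10 against 1.55 and 1.31, a change of 0.36 ± 0.13 (limma adjusted p = 0.102). Cdk2, its kinase partner, had 0.849 and 0.874 against 1.25 and 0.992 at the far end of the gene. At the peak over its own start, chr10:128701577-128706297, Cdk2 had 0.752 and 0.581 against 0.757 and 0.783, a change of 0.21 with an adjusted p of 0.572 in limma. The B-type cyclin genes Ccnb1 and Ccnb2 had changes of 0.22 and 0.23, and the mitotic kinase gene Cdk1 had 0.15. The E-type cyclin genes, which act at the entry into S phase, had 0.03 (Ccne1) and 0.27 (Ccne2).

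The 3 E2F genes spread widest. E2f1, an activator of S phase genes, was the 1 member with a change below 0: it had 0.545 and 0.549 with vehicle and 0.585 and 0.427 with AA, a change of -0.12 ± 0.21 (limma adjusted p = 0.787), and the groups overlapped. E2f2, another activator, had 0.606 and 0.582 against 0.853 and 0.706, a change of 0.37 ± 0.18 that did not pass. E2f8, a repressor of the family, had 0.879 and 0.873 against 1.21 and 1.01, a change of 0.33 ± 0.15 that did not pass either.

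The 7 mitotic kinase, checkpoint and exit genes had the same median change, 0.33, as the E2F genes, with a range of 0.09 to 0.42, and none was called. Aurka, the kinase of the spindle poles, had 0.991 and 0.928 with vehicle and 1.32 and 1.26 with AA. The groups did not overlap, and the change of 0.42 ± 0.14 had an adjusted p of 0.0673 in limma. The smallest change was that of the checkpoint kinase gene Bub1 at 0.09, while the mitotic kinase Plk1, the anaphase activator Cdc20 and survivin (Birc5) had 0.36, 0.33 and 0.36. Aurkb, the kinase of the chromosomal passenger complex, had the longest peak of the 38, 14620 bp. That peak also lay at or near an end of Ctc1.

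Among the 7 spindle, centromere and chromosome genes, 1 was called. Top2a, which untangles sister chromatids, scored 1.10 and 0.962 with vehicle and 1.49 and 1.39 with AA at chr11:99020724-99025268 (mm10). The groups did not overlap, with means of 1.03 ± 0.0995 and 1.44 ± 0.0710 (SD, n = 2 each), and the change of 0.48 ± 0.13 had an adjusted p of 0.0187 in limma. Mki67, which coats mitotic chromosomes and is the usual marker of dividing cells, had 1.10 and 1.03 against 1.47 and 1.32, a change of 0.38 ± 0.13 (adjusted p = 0.0859, limma). Kif11, the motor that pushes the spindle poles apart, had the highest H3K4me3 score of all members with 1.78 and 1.62 against 2.05 and 1.85. Its change was smaller, 0.20 ± 0.10, and did not pass (adjusted p = 0.333, limma). The centromere genes Cenpa and Cenpe had changes of 0.12 and 0.20, the kinesin Kif20a had 0.39 and the spindle assembly factor Tpx2 had 0.27.

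**Figure D3:**
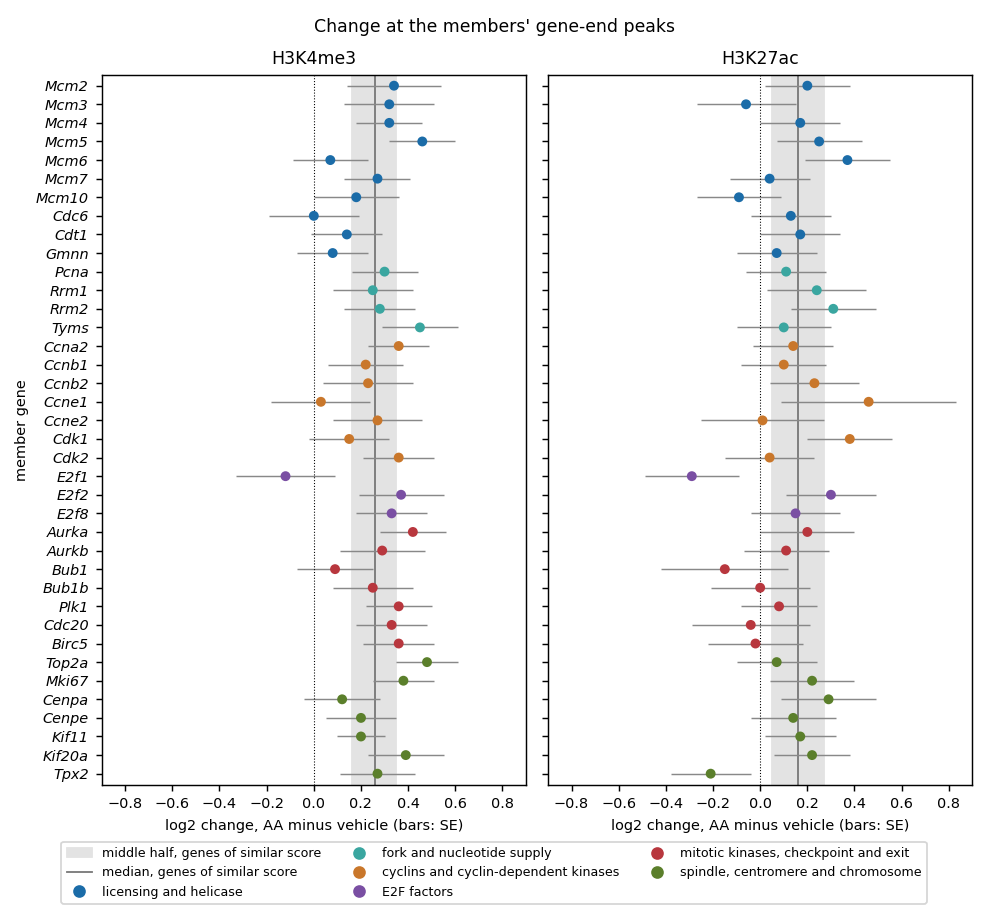
Log2 change (AA minus vehicle, bars are the SE) at the gene-end peak of each member for H3K4me3 and H3K27ac, beside the median (line) and interquartile range (grey band) of genes of similar mean score. The H3K4me3 medians are 0.28 for members and 0.26 for genes of similar score, and those for H3K27ac are 0.14 and 0.16.

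The members' median H3K4me3 change was close to that of genes of similar mean score. The difference of the medians was 0.01, and 22 of 38 members lay above the median of those genes. With each member instead compared with genes in its own of 20 equal bins by score, a comparison added after the data were seen, the difference was 0.01 and 21 of 38 lay above. The change moved with the score over all genes: the bin with a median score of 0.0895 had a median change of -0.66 and 0% of genes called higher, and the bin with a median score of 1.26 had 0.37 and 37.2%. Top2a, Mki67, Kif11 and Ccna2 were in that highest bin, and E2f1 and Ccne1, the members with the lowest scores, were in a bin with a median change of 0.11. Among the members, Spearman's rho of the score with the change was 0.46 (n = 38 genes, which share the 4 libraries, so no p is given). The 4 libraries also differed in depth: the median signal at the members' peaks, before the authors' scaling, was 16.3 and 10.4 per base with vehicle and 10.1 and 9.06 with AA. The part of depth and score in the changes was not tested.

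**Figure D4:**
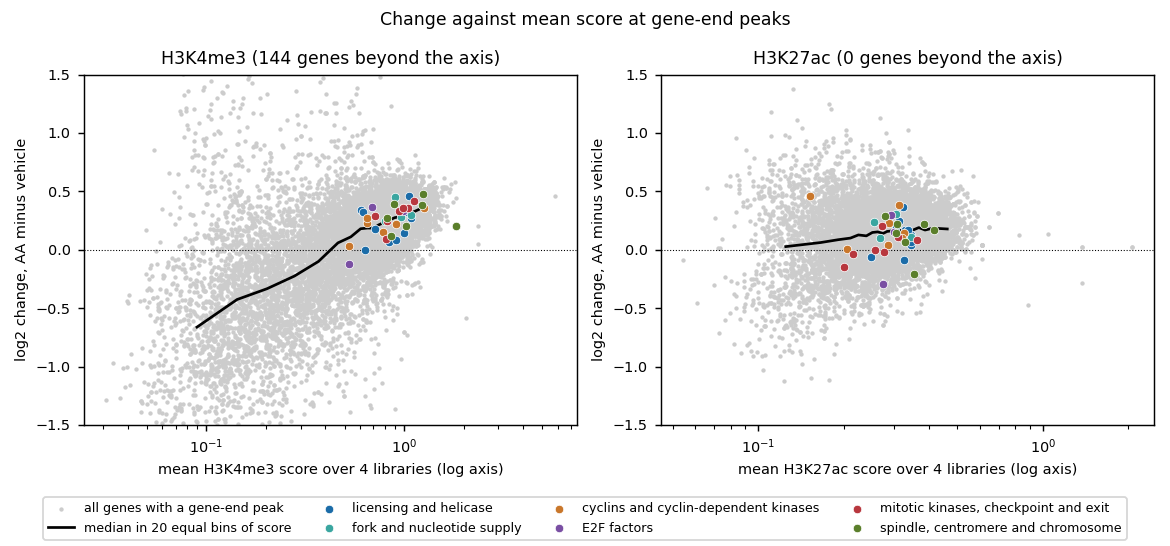
Log2 change (AA minus vehicle) against mean score (log axis) at the gene-end peak of every gene (grey), with the median in 20 equal bins (line) and the members coloured by role. In H3K4me3 the line runs from -0.66 at a score of 0.0895 to 0.37 at 1.26, and the members lie around it.

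For H3K27ac no member was called by limma in either direction. The background was low as well: 0.155% of the 62547 peaks were called higher and 0.0448% lower (0.2% in either direction), 0.278% and 0.00843% of the 11868 genes at their gene-end peak, and 0.357% and 0% of the 3085 genes of similar mean score. At an unadjusted p under 0.05 in limma there were 2 members, Mcm6 and Cdk1, or 5.26%, beside 11.2% of all genes with a peak and 11.9% of genes of similar score with a change above 0, and 0.649% and 0.486% with a change below 0. The lowest adjusted p from limma was 0.59. The median signal at the members' H3K27ac peaks, before the authors' scaling, was 3.05 and 3.84 per base with vehicle and 3.91 and 4.53 with AA. The members' median change was 0.14 (range -0.29 to 0.46), with 30 of 38 above 0, beside 0.16 in genes of similar score and 0.15 in all genes, and 16 of 38 lay above the median of genes of similar score. After quantile normalization the members' median was 0, with 19 of 38 above 0. Both AA libraries lay above both vehicle libraries at 18 members, beside 41.4% of all genes and 44.5% of genes of similar score, and below both at 1, Cdc20, beside 5.06% and 3.7%.

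Cdk1, the kinase that starts mitosis, had H3K27ac scores of 0.275 and 0.248 with vehicle and 0.377 and 0.348 with AA, a change of 0.38 ± 0.18 (limma adjusted p = 0.59). Mcm6, a helicase subunit, had 0.264 and 0.282 against 0.401 and 0.345, a change of 0.37 ± 0.18 (limma adjusted p = 0.608). In both the AA libraries were the higher ones, and both genes had small H3K4me3 changes, 0.15 and 0.07. The 2 members called for H3K4me3 differed from each other here. Mcm5 had 0.265 and 0.294 against 0.350 and 0.342, with no overlap and a change of 0.25, whereas Top2a had 0.297 and 0.340 against 0.398 and 0.283, with overlap and a change of 0.07. Ccne1 had the largest change of the list, 0.46 ± 0.37, from 0.112 and 0.114 against 0.267 and 0.117 at a peak away from its start. That value came from AA replicate 1, and the other AA library was level with vehicle.

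E2f1 showed different values at its own peaks. The short H3K27ac peak that covers the upstream end of the gene had 0.359 and 0.258 with vehicle and 0.277 and 0.201 with AA. The change there was -0.29 ± 0.20. The longer H3K27ac peak lies 415 bp from that end. It covers the start given in the table of promoters, which lies inside the gene. This longer peak had 0.195 and 0.169 against 0.262 and 0.252, a change of 0.38. Neither passed (limma adjusted p = 0.763 and 0.748). By role, the mitotic kinase, checkpoint and exit genes had a median H3K27ac change of 0 with 3 of 7 above 0, and the other 5 sets had medians between 0.14 and 0.18. No test of that difference was made.

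**Figure D5:**
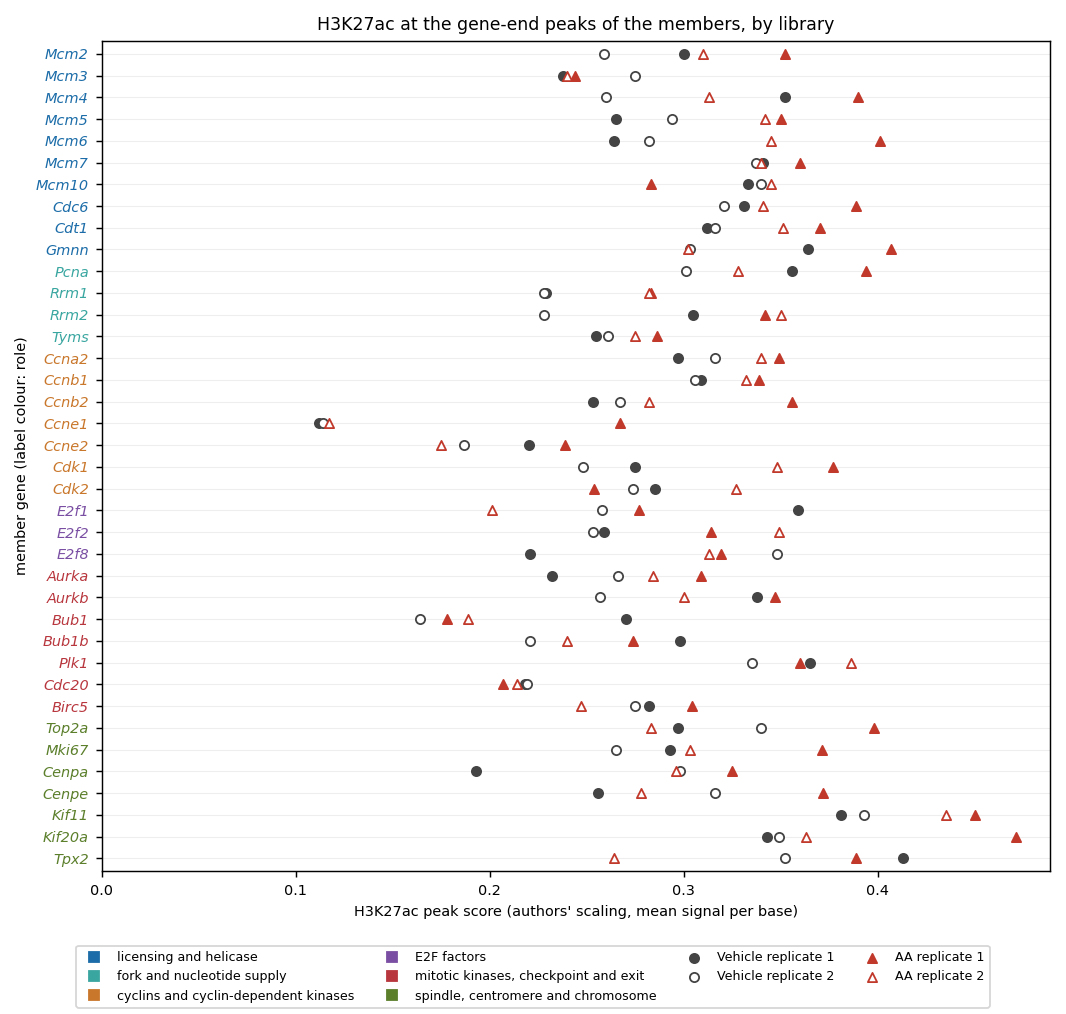
H3K27ac peak score at the gene-end peak of each member in the 4 libraries, on an axis that starts at 0. Vehicle and AA points lie close together, AA is above vehicle in both libraries at 18 of 38 members, and Cdc20 is the 1 member with AA below in both.

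The changes of the 2 active marks did not rank the members alike. Over the 38 genes, Spearman's rho of the H3K4me3 change with the H3K27ac change was 0.01, beside 0.14 over the 11367 genes with both marks. The levels were closer, with a rho of 0.45 for mean scores and 0.40 for peak lengths, against 0.57 for scores over the genes with both marks. Kif11 had the highest mean score of the members in both marks, with H3K27ac scores of 0.381 and 0.393 against 0.450 and 0.435. These correlations are over genes that share libraries and carry no p.

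H3K27me3 at the members was sparse. The 4 peaks were 899 to 1579 bp long, all lay below the median score of the 7705 genes with such a peak, and the signal before scaling was 0.472 to 3.61 per base. None was called by limma, beside 0.498% of the 105301 peaks called higher and 0.0475% lower (0.545% in either direction), 2.89% and 0.234% of all genes with a gene-end peak, and 0% and 0% of the 828 genes of similar mean score. At an unadjusted p under 0.05 there was 1, E2f1, with a change below 0, beside 3.09% of all genes with a peak and 3.38% of genes of similar score below 0, and 17.1% and 3.99% above 0. The groups did not overlap at E2f1, where both AA libraries lay below vehicle (14.9% of all genes, 18.6% of genes of similar score), nor at E2f8, where both lay above (37.7% and 22.2%). E2f1 had 0.0968 and 0.292 with vehicle and 0.0619 and 0.0361 with AA, a change of -1.34 ± 0.58 (limma adjusted p = 0.426), and the vehicle libraries differed from each other by more than the lower one did from AA. E2f8 had 0.0593 and 0.0401 against 0.136 and 0.0955, the 1 member with AA higher in both libraries, and its change of 0.84 ± 0.67 did not pass. Birc5 had 0.0603 and 0.180 against 0.0499 and 0.157, and Kif11 had 0.165 and 0.0795 against 0.0631 and 0.0999, so that the groups overlapped at both.

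A wider list of 149 replication, cell cycle and mitosis genes outside the 38 was read in the same fit. For H3K4me3, 145 had a gene-end peak, 10 were called higher and 0 lower, and the median change was 0.29 with 138 above 0. These values are near the background of 5.45% of all genes with a peak called higher (1.2% lower) and the median of 0.26 in genes of similar score to the members. The list itself had a median score of 0.82. In the bin with a median score of 0.818, 2.63% of genes were called higher and the median change was 0.24. No set matched to the scores of the list was made. Those with the lowest adjusted p from limma were the centromere gene Cenpn (change 0.65 ± 0.14, adjusted p = 0.0012), the condensin subunit gene Ncapd2 (0.50), Lin54 (0.49) and Rbl2 (0.51), both of the DREAM complex that represses cell cycle genes, the separase gene Espl1 (0.51) and the polymerase gene Pole (0.45). With the mean over all gene-end peaks of a gene, the change was 0.01 at Lin54, 0.39 at Cenpn and 0.33 at Ncapd2. It was 0.48 at Espl1, 0.45 at Pole and 0.51 at Rbl2. After quantile normalization only Cenpn of these 6 passed. None passed without vehicle replicate 1 or without vehicle replicate 2, in fits that called few peaks anywhere, and the changes there were 0.71 and 0.58 at Cenpn, 0.52 and 0.47 at Ncapd2 and 0.52 and 0.51 at Rbl2. The 7 genes of cyclin-dependent kinase inhibitors, which hold the cycle back, had a median of 0.18 (range -0.02 to 0.67) and none was called. Their median score was 0.69, and the bin with a median score of 0.703 also had a median change of 0.18. For H3K27ac, 141 were measured, none was called by limma, beside 0.278% of all genes with a peak called higher, and the median was 0.16.

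For H3K27me3, 38 of the 149 were measured and 2 were called higher, none lower, beside 2.89% of all genes with a peak called higher and 0.234% lower. The share called higher rose with the score. It was 0% in the bin with a median score of 0.134, 5.47% at 0.221 and 19.2% at 0.377. Ccnd2, a G1 cyclin, had 0.292 and 0.284 with vehicle and 0.442 and 0.414 with AA, a change of 0.52 ± 0.09 (limma adjusted p = 0.000208). Mycn, a transcription factor of the Myc family, had 0.127 and 0.163 against 0.312 and 0.328, a change of 0.99 ± 0.17 (limma adjusted p = 0.00028). The groups did not overlap at either gene. With a gene-end window of 200 bp, Ccnd2 had no value and Mycn kept its change of 0.99. Neither passed in limma after centring (adjusted p = 0.242 and 0.055) or after quantile normalization (0.405 and 0.0531). Those fits called 79 and 164 of the 105301 peaks, against 574 in the main fit. Neither passed without any 1 of the 4 libraries, in fits that also called few peaks anywhere. The changes stayed above 0 throughout: Ccnd2 had 0.41 with centring, 0.34 with quantile normalization and 0.48 to 0.57 with 1 library left out, and Mycn had 0.89, 0.83 and 0.85 to 1.14. The H3K4me3 changes of Ccnd2 and Mycn were 0.28 and -0.31, and neither passed.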

How the data were processed

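CUT&RUN scores of 12 libraries were taken from 1 table that the authors deposited, in which every SEACR or MACS2 peak of a mark has 1 signal value per library. The build was mm10, per the submitters' processing notes. The aligner, the filters and how scores were scaled are not given in the labels or headers. Multiplied by peak length, the deposited scores were whole multiples of a step set by the library (within 0.1 step, for at least 99.9899% of values under 1000 steps), so the signal before scaling is the score divided by that step. Rows named control were read as vehicle, since no other group remained for them.

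Members and lists were chosen with earlier results of these data known. SEACR peaks within 1 kb of either gene end (RefSeq) were joined to 21900 protein-coding genes. Scores were fitted per mark with limma 3.58.1 (R 4.3.3; trend and robust, two-sided) as log2(score + pseudocount), the pseudocount being the 5th percentile of positive values (0.0253 for H3K4me3, 0.0693 for H3K27ac, 0.0329 for H3K27me3). Changes on that scale understate those of low peaks. The fit was tested on simulated data. Genes given with values in every library are those called and, per role, those with the largest change and the highest score in H3K4me3; of the wider list, up to 6 called genes per mark by adjusted p. Cdc6 and the H3K27ac and H3K27me3 examples were chosen after their values were seen. Alternatives covered the pseudocount, a filter, scaling, the variance model, replicate block, left-out libraries, MACS2 peaks, threshold and gene-end window.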

Additional observations from a re-analysis of the deposited data

How the results depend on the processing

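The number of members called for H3K4me3 depended on the setting: 2 with the deposited scaling, 19 after centring each library on its median, 0 after quantile normalization, 0 without the trend and robust steps, 6 with the replicate number as a block, 7 with MACS2 peaks, 0 at an adjusted p of 0.01, and 0 to 27 when 1 library was left out. Shares among genes of similar score moved too (56.4%, 6.18%, 0%, 11.4%, 8.29%, 0.834%, and 0.0813% to 65.3%). MACS2 peaks gave 18.4% of members beside that 8.29%, and Mcm5 was not among them (adjusted p from limma 0.0619). The members' median change was 0.49 with centring, 0.04 with quantile normalization and 0.19 to 0.40 with 1 library left out. Its difference from genes of similar score ranged from 0 to 0.05 with 1 library left out. Mcm5 and Top2a kept their direction in all 15 alternatives and lost the call in 6 and 5. Some alternatives could not alter the direction. The threshold, the variance model, the replicate block and the 200 bp window left the changes at 0.46 and 0.48. The 200 bp window and the mean over all gene-end peaks also kept the adjusted p of the main fit. With that mean the change at Top2a was 0.30.

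No alternative called a member for H3K27ac. The median there was 0 with quantile normalization, and its difference from genes of similar score was -0.16 with MACS2 peaks (12 members) and -0.05 to -0.01 with 1 library left out. For H3K27me3 the median of 4 members ranged from -0.70 to 0.13 with 1 library left out, and the difference from -0.62 to 0.11; both were above 0 without AA replicate 1 (0.13 and 0.11). The cause of these shifts was not tested. MACS2 gave no member an H3K27me3 gene-end peak. No label pairs the replicate numbers, and the correlation of same-numbered deviations was -0.00228 for H3K4me3, 0.00853 for H3K27ac and 0.00247 for H3K27me3.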
